A study of Mus musculus with 16 samples.

Results

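RFP+ MHCIIlo cells are medullary thymic epithelial cells (mTEC) that carried a red fluorescent protein (RFP) switched on by earlier Aire expression and had little MHC class II on their surface. They were 4 of the 16 sequenced libraries, chosen by the titles and sorting gates in the labels, and were compared with the mean of the 3 other sorted populations, RFP- MHCIIhi, RFP+ MHCIIhi and RFP- MHCIIlo, with 4 libraries each. All mice had the strain C57BL6.Aire-CreERT2.Ai14, in which a tamoxifen-dependent Cre under control of Aire permanently turns on the Ai14 red reporter. Every mouse, those giving RFP- cells included, was 5 to 6 weeks old, with sexes mixed, and received 2 mg tamoxifen, and thymi were taken 7 days later, with 12 mice pooled per library. Live CD45- EPCAM+ thymus cells were split by RFP and MHC class II. The RFP label marks only cells that expressed Aire around the pulse and their progeny, so RFP- cells may also have expressed Aire earlier or later. Each RFP+ MHCIIlo library held 19400 to 20500 sorted cells and 7.93 to 12.929 M counted reads (M, mega), and each library of the other populations 80500 to 164000 cells and 10.355 to 19.458 M reads. Low input is therefore a property of every RFP+ MHCIIlo library, and input and population cannot be told apart. Of the 4 libraries, 1 and 4 stood apart from the others, library 4 in its correlations with the other 3 and library 1 in the direction that separates MHCIIlo from MHCIIhi cells. P-values measure the spread between these pools of mice.

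mTEC express a broad sample of the body's tissue-restricted genes and so expose developing T cells to self antigens. Aire, a transcriptional regulator, drives much of this expression in mature MHCIIhi cells. Cells that have passed through the Aire stage can lose MHC class II and take on features of peripheral epithelia: of cornifying keratinocytes, which build a protein and lipid barrier, of tuft cells, which sense chemicals through taste-type signalling, of ciliated cells, and of microfold cells, which sample antigen. The markers given for the population belong to the first and the third of these: Krt10 is a keratin of suprabasal epidermis, Abca12 loads lipid into the lamellar granules of keratinocytes, and Spata18 is a p53-responsive gene of mitochondrial quality control that is also abundant in ciliated cells.

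The 3 markers peaked in RFP+ MHCIIlo. Levels are normalised counts per M reads (CPM). Krt10 (chr11:99385254-99389364, GRCm38) was at 414, 320, 333 and 209 CPM in RFP+ MHCIIlo libraries 1 to 4. It was at 12, 10.9, 8.58 and 11.1 CPM in RFP- MHCIIhi, at 152, 135, 132 and 101 CPM in RFP+ MHCIIhi, and at 37.1, 22, 25.9 and 20.3 CPM in RFP- MHCIIlo. Every RFP+ MHCIIlo library lay above every other library, which held for 1683 of the 19617 tested genes (8.58%). For Krt10 the difference from the mean of the other populations was 3.26 on the log2 scale (SE 0.13, adjusted p = 7.7e-16, edgeR's quasi-likelihood test, Benjamini-Hochberg adjusted over 19617 genes, as for every adjusted p below). Abca12 (chr1:71242276-71414910) was at 73.8, 60.5, 74.8 and 60.8 CPM in RFP+ MHCIIlo and at most at 19.9 CPM in any other library (log2 difference 3.13, SE 0.1, adjusted p = 2.3e-17). Spata18 (chr5:73651379-73679512) was at 36.3, 32, 30.7 and 32.1 CPM, and its highest value elsewhere was 8.89 CPM (log2 difference 2.47, SE 0.11, adjusted p = 3.6e-15). Abca12 and Spata18 were also among the genes of a naming rule that itself required this lack of overlap. For Krt10 and Abca12 the nearest population was RFP+ MHCIIhi, and for Spata18 it was RFP- MHCIIlo. The epithelial genes of the gate were present in RFP+ MHCIIlo, with Epcam at 578 to 620 CPM in its 4 libraries and a peak there as well (593 ± 18.8 CPM, SD, n = 4).

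**Figure D1:**
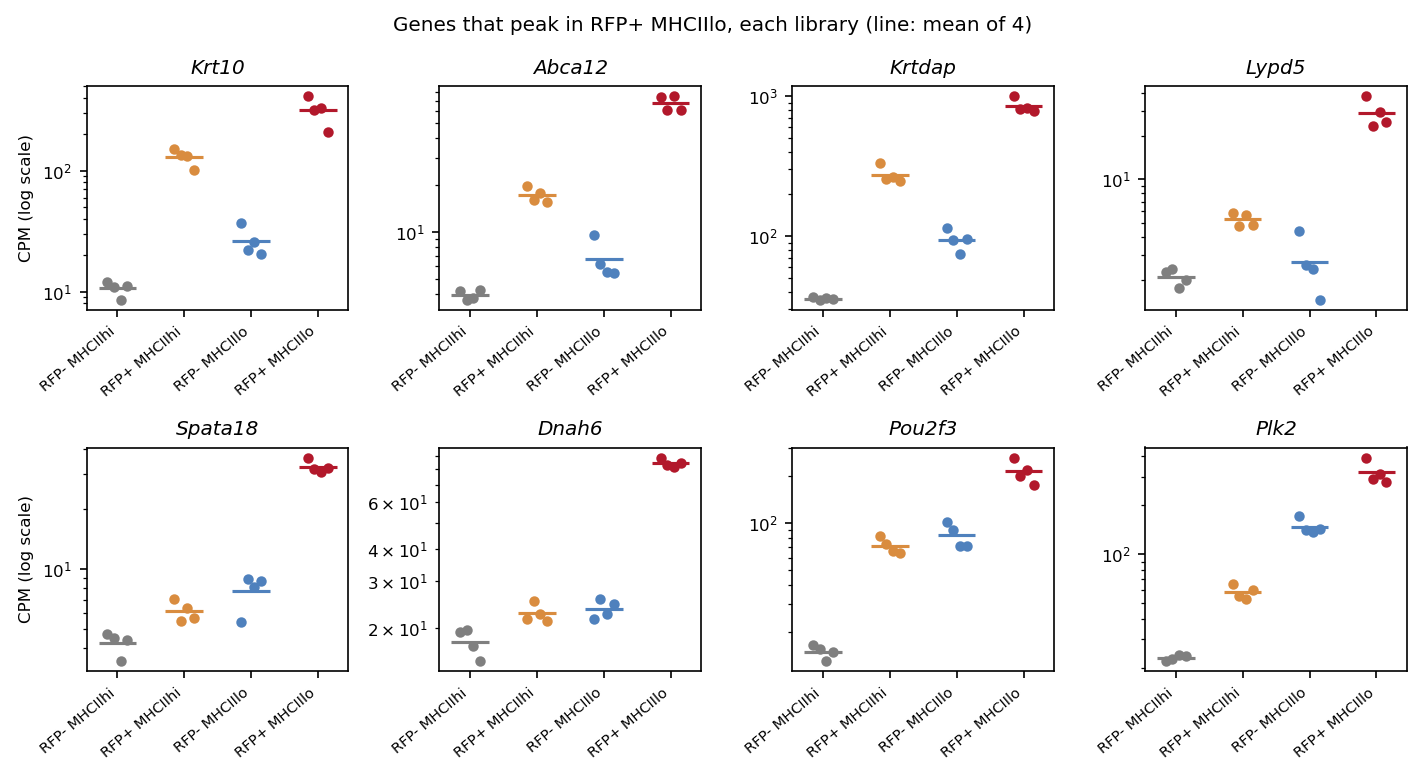
CPM (vertical log axes) of 8 genes that peak in RFP+ MHCIIlo, with a point for each of the 4 libraries of each population and a line at their mean. In each panel the 4 RFP+ MHCIIlo points lie above the points of the 3 other populations. For Lypd5, Dnah6, Abca12 and Spata18 this was set by construction, as they are among the genes of a naming rule that required it. The next population is RFP+ MHCIIhi for Krt10, Abca12, Krtdap and Lypd5 and RFP- MHCIIlo for Spata18, Dnah6, Pou2f3 and Plk2.

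Against the mean of the others, 11207 of the 19617 tested genes (57.1%) passed at an adjusted p under 0.05, with 5794 (29.5%) higher in RFP+ MHCIIlo and 5413 (27.6%) lower. A gene can pass this contrast and still lie below one of the populations: 10.2% of the higher genes were lower than at least 1 of them, and 14.9% of the lower genes were higher than at least 1. A gene was therefore said to peak in RFP+ MHCIIlo when it was higher against each of the 3 populations in its own test, which 2107 genes were (10.7%), and to be lowest there when it was lower against each, which 1202 were (6.13%). With a difference of more than 1 on the log2 scale against each population, 651 genes peaked (3.32%) and 380 were lowest (1.94%), and these are called strong. The 3 tests share the RFP+ MHCIIlo libraries. At the edge of the strong class, Klf4, Rgs9 and Perm1 were just inside, with smallest differences of 1.0, 1.01 and 1.01, and Sgms2, Cacna1d and Klk7 were just outside, each at 1.0 after rounding. The population nearest to RFP+ MHCIIlo was RFP- MHCIIlo for 310 strong peak genes, RFP+ MHCIIhi for 279 and RFP- MHCIIhi for 62. Protein-coding genes made up 521 of the strong peak and 352 of the strong lowest genes, and 85.6% of all tested genes.

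**Figure D2:**
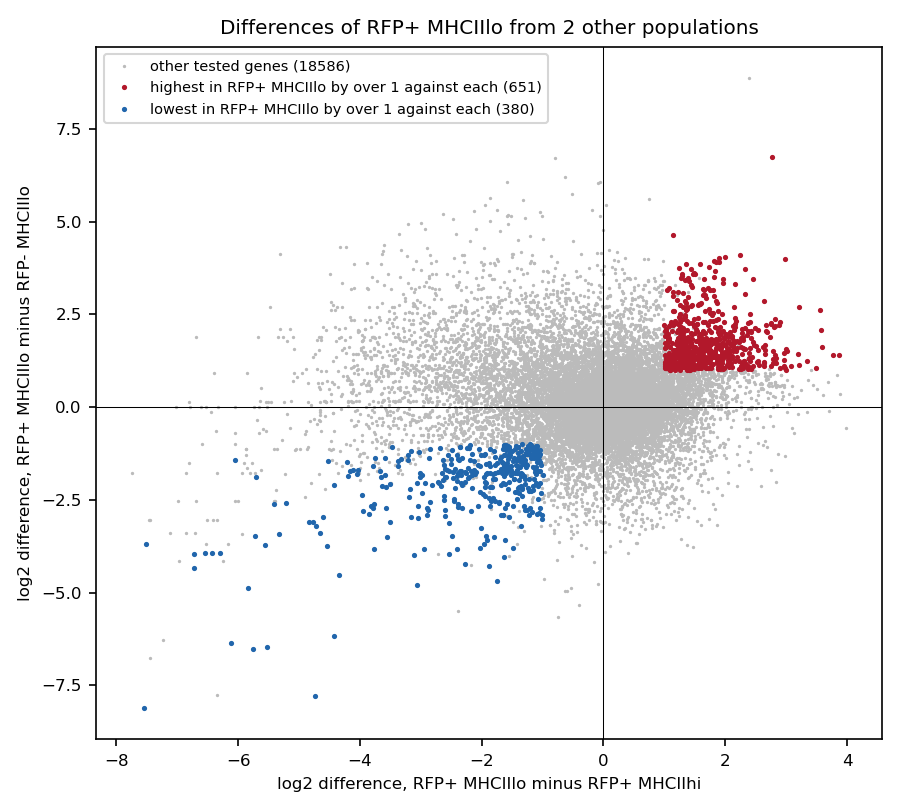
Fitted log2 differences of RFP+ MHCIIlo from RFP+ MHCIIhi (horizontal) and from RFP- MHCIIlo (vertical) for the 19617 tested genes, a point per gene. Red points are the 651 strong peak genes and blue points the 380 strong lowest genes, which also had to pass against RFP- MHCIIhi (not plotted), so both sets lie beyond 1 on both axes by construction.

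Structural genes of the upper epidermis peaked in RFP+ MHCIIlo as a group. Of 41 tested genes of suprabasal keratinocytes and the cornified envelope, the crosslinked protein shell of dead skin cells, 35 were higher and 1 was lower than the mean of the other populations, with a median log2 difference of 2.09 (0 over all tested genes). All 41 passed as higher against RFP- MHCIIlo (28.9% of all tested genes), 30 against RFP+ MHCIIhi (27.5%) and 33 against RFP- MHCIIhi (33.6%), while 7 were lower than in RFP+ MHCIIhi and 6 lower than in RFP- MHCIIhi. A peak was found for 30, of which 21 were strong. Krtdap, a secreted protein of differentiating keratinocytes, was at 1001, 811, 821 and 778 CPM in RFP+ MHCIIlo, against 274 CPM in RFP+ MHCIIhi, 94.5 in RFP- MHCIIlo and 35.8 CPM in RFP- MHCIIhi (means of 4). Krt1, the partner of Krt10 in suprabasal keratin filaments, was at 320, 206, 322 and 193 CPM, and at most at 93.5 CPM in any other library. The envelope proteins Lor (51.2, 30.9, 33.4 and 21.5 CPM) and Ivl (59.9, 58.3, 49.9 and 39.6 CPM) lay above all other libraries, as did Cnfn, another envelope component (103, 79.6, 89.3 and 90.4 CPM). Cnfn was named by a rule that itself required this lack of overlap, and Lor and Krt1 were also among the genes of that rule. Spink5, an inhibitor of skin kallikreins, was the strong peak gene with the highest CPM, at 1062, 933, 896 and 796 CPM, and was already at 436 CPM in RFP+ MHCIIhi and 202 in RFP- MHCIIlo. Lypd5, a member of the Ly6 family, had the largest smallest-of-3 difference among the named genes: 37.9, 23.5, 29.4 and 25.2 CPM against 5.28 CPM in RFP+ MHCIIhi, its nearest population (log2 difference 2.45, SE 0.2, adjusted p = 3.1e-10). Serpinb12, a serine protease inhibitor of the list, was the 1 member lower than the mean of the others, a call that did not hold without libraries 1 and 4. It was at a mean of 37.3 CPM in RFP+ MHCIIlo, with 140 and 134 CPM in RFP- and RFP+ MHCIIhi and 5.85 in RFP- MHCIIlo.

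The lipid and protease genes of the skin barrier were higher too, but stood less far from RFP+ MHCIIhi. Of 24 skin barrier lipid genes, 21 were higher than the mean of the others and none was lower. A peak was found for 14, and only Abca12 and Cers3, the ceramide synthase of very long acyl chains, were strong. The median difference was 2.08 from RFP- MHCIIlo and 0.44 from RFP+ MHCIIhi. Elovl4, which elongates fatty acids for barrier ceramides, was at 87.8, 98.6, 64.9 and 75.7 CPM, against 41.6 CPM in RFP+ MHCIIhi and 15.6 in RFP- MHCIIlo. Alox12b, a lipoxygenase that oxidises those ceramides, passed against the mean (log2 difference 1.05, SE 0.11, adjusted p = 1.3e-08) through its low level in RFP- MHCIIlo alone: it was at 28.8 CPM in RFP+ MHCIIlo, 30.4 in RFP+ MHCIIhi, 30.1 in RFP- MHCIIhi and 2.94 in RFP- MHCIIlo. Among 11 kallikreins, the proteases that shed corneocytes, 8 were higher, 7 peaked and 4 peaked strongly. Klk13 was at 47.5, 48.1, 52.2 and 49.5 CPM, against 19.3 CPM in RFP+ MHCIIhi and 3.43 in RFP- MHCIIlo. Klk4 was the 1 lower member, at 1.12 CPM in RFP+ MHCIIlo, far below its means in RFP- MHCIIhi (42.9 CPM) and RFP+ MHCIIhi (25.8 CPM). Kallikreins are similar in sequence, and reads could have been counted for a neighbour.

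Transcription factors of keratinocyte differentiation divided. Of 25 tested, 20 were higher and 3 lower than the mean, 9 peaked (Klf4, Klf5, Ehf and Pou2f3 strongly) and 3, with Maf and Foxn1 among them, were lowest. Pou2f3 also specifies tuft cells, and its levels are given with the tuft cell genes. Klf4 and Klf5 were at the edge of the strong class: 2 members were strong without library 1, where both of these dropped out, and 3 without libraries 1 and 4. Klf4, which drives barrier formation, was at 170, 151, 163 and 127 CPM against 76.1 CPM in RFP- MHCIIlo and 64.1 in RFP+ MHCIIhi. Klf5, an epithelial Krüppel-like factor, was at 139 ± 10.6 CPM, and Ehf, an epithelial Ets factor, at 348 ± 52 CPM (SD, n = 4), both with every library above all others. Grhl1, a grainyhead factor that controls desmosomal genes, peaked at 69.7 CPM against 44.4 CPM in RFP+ MHCIIhi. The related Grhl3 did not: it was at 32.6 CPM in RFP+ MHCIIlo, below RFP+ MHCIIhi (43.7 CPM, log2 difference -0.42, SE 0.1, adjusted p = 0.0015) and above RFP- MHCIIlo (13.3 CPM). Ovol1, a zinc finger factor that ends basal cell growth, was at 22.5 CPM in RFP+ MHCIIlo and 25.3 in RFP+ MHCIIhi, a difference that did not pass (log2 -0.18, SE 0.14, adjusted p = 0.3).

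Several peak genes of the keratinocyte list carried the letters of the AP-1 site in their promoters. The motif TGANTCA, which AP-1 factors bind and which reads the same on both strands, was found in the window from 250 bases before to 50 after the start in 8 of 22 peak members of that list with a RefSeq promoter (36.4%), in 12.4% of 443 strong peak genes and in 6.0% of the 14003 tested genes with a promoter. The share was 7.1% of 253 strong lowest genes and 3.7% of 27 tuft cell peak members, and 5 of 27 motile cilium peak members had the motif (18.5%). The TATA motif TATAAA (either strand) was also found in 8 of these 22 promoters, against 9.4% of all. Base composition differed as well: 51.8% of bases were G or C in these 22 windows and 59.2% over all. The part of base composition in the motif shares was not tested. The grainyhead motif AACCNGTT (either strand) was in 2.3% of strong peak and 2.0% of all promoters. None of the motifs searched is contained in another. A match is a description of the sequence, and binding was not measured. The following stretches lie upstream of 4 of the peak members named here, on GRCm38.p6 and in the direction of the gene, with the motif in capitals. They are chr7:30787807-30787847 (plus strand), chr7:30763650-30763690 (plus strand), chr3:92573828-92573868 (minus strand) and chr3:92083167-92083207 (minus strand).
Krtdap: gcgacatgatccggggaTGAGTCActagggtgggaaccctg
Dmkn: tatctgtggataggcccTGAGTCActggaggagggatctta
Ivl: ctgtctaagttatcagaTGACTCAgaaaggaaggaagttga
Lor: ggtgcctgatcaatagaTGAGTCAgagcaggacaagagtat
Krtdap and Dmkn, which encodes the secreted dermokine, are neighbours with Sbsn (suprabasin) on chromosome 7, and all 3 were strong peak genes: Dmkn was at 405, 333, 395 and 362 CPM and Sbsn at 338, 256, 231 and 179 CPM, against 143 and 85.2 CPM in RFP+ MHCIIhi. Runs of 4 or more strong peak genes with gaps of at most 100 kb were searched for. Each run was bounded by strong peak genes, so a high share of them inside it was set by construction. From 30751471 to 30914873 on chromosome 7, 5 of 7 tested genes were strong peak genes (Ffar2 and Mag beside these 3). On the same chromosome, from 43712567 to 43796757, 4 of 5 tested genes were the strong peak kallikreins Klk13, Klk11, Klk10 and Klk9. A run of 5 of 6 tested genes on chromosome 1 held only predicted genes, and runs of 4 strong peak genes lay on chromosomes 1 and 2.

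Motile cilium genes peaked as well, with similar median differences from the 3 other populations. Of 39 tested genes, 35 were higher and 2 lower than the mean of the others, 31 peaked and 25 peaked strongly. The median log2 difference was 1.69 from RFP- MHCIIhi, 1.48 from RFP+ MHCIIhi and 1.57 from RFP- MHCIIlo. Single members could differ between those populations. Dnah5 was at 143, 76.8, 102 and 98.9 CPM in RFP+ MHCIIlo, against means of 22.3, 22.2 and 71.3 CPM in the same order. Its libraries overlapped with those of RFP- MHCIIlo, and its peak did not hold without libraries 1 and 4. Dnah6, a heavy chain of the inner dynein arm, was at 88.7, 83.1, 82 and 84.3 CPM in RFP+ MHCIIlo. In the other 12 libraries it lay between 14.9 and 25.8 CPM, and the difference from the mean was 2.0 (SE 0.07, adjusted p = 8.1e-17). Rsph1, a radial spoke protein, was at 60.6, 40.6, 39.6 and 42.1 CPM, against 11.1, 12.7 and 13.6 CPM in RFP- MHCIIhi, RFP+ MHCIIhi and RFP- MHCIIlo. Sntn, a protein of the ciliary tip, was at 15.7, 13, 16.3 and 19.7 CPM, and at 0.326, 2.45 and 4.37 CPM in the same order of populations. Tmem212, Fam183b, Vwa3a, Ccdc146, Ccdc17 and Cdhr3, all known from ciliated epithelia, were among the genes named by a rule that itself required every RFP+ MHCIIlo library to lie above the other 12. Dnah6 and Rsph1 were named by the same rule.

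The regulators above these structural genes were not all at their highest in RFP+ MHCIIlo. Foxj1, the transcription factor that switches on motile cilium genes, peaked strongly, at 110, 104, 114 and 101 CPM against 44.3 CPM in RFP+ MHCIIhi, 33 in RFP- MHCIIlo and 29.3 CPM in RFP- MHCIIhi. Rfx3, a factor that binds the promoters of cilium genes, peaked at 83.7 CPM against 44.7 CPM in RFP- MHCIIlo. Gmnc, which starts the multiciliated programme, was at 0.108, 0.122, 0.83 and 0.497 CPM, lower than the mean of the others (log2 difference -2.32, SE 0.45, adjusted p = 0.00011). It was highest in RFP- MHCIIhi (8.21 CPM) and not distinguishable from RFP- MHCIIlo (0.366 CPM, log2 difference 0.25, SE 0.65, adjusted p = 0.77). Mcidas, which acts beside Gmnc, was at 3.02, 7.3, 5.5 and 2.57 CPM against 17.1 CPM in RFP- MHCIIhi, 9.44 in RFP+ MHCIIhi and 2.1 in RFP- MHCIIlo (log2 difference -0.63, SE 0.22, adjusted p = 0.017), and that call did not hold without library 1 or without library 4.

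Letters of the binding site of RFX factors were found upstream of some cilium genes. The motif GTTGCCA, a core of the X-box, was in 6 of 27 peak members of the cilium list with a promoter (22.2%, either strand), in 54 of 443 strong peak genes (12.2%), in 4.1% of all 14003, in 3.2% of strong lowest genes and in none of the 22 keratinocyte peak members. The average base composition of these windows differed: 54.8% of bases were G or C in strong peak genes and 59.2% over all. The stretches below (GRCm38.p6, direction of the gene, motif or its reverse complement in capitals) are chr16:44394762-44394798 (plus strand), chr11:72361883-72361914 (minus strand), chr8:110266946-110266976 (plus strand) and chr14:13670793-13670833 (plus strand). The motif ends 13, 8, 7 and 59 bases before the annotated start. Cfap44 has another match farther upstream.
Cfap44: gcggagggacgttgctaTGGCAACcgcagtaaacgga
Tekt1: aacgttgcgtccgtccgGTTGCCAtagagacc
Hydin: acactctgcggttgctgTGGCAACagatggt
Sntn: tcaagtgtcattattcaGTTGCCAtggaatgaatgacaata
These 4 genes encode parts of the cilium shaft and tip, and all were strong peak genes. Cfap44 was at 53.7, 50.5, 46.8 and 42.1 CPM in RFP+ MHCIIlo against at most 16.2 CPM as a population mean elsewhere, and Hydin, of the central pair, at 48.9, 45.1, 41.2 and 37.7 CPM against at most 20.1 CPM.

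Tuft cell genes peaked almost throughout, with RFP- MHCIIlo as the nearest population. Of 35 tested genes, 34 were higher than the mean of the others and none was lower, with a median log2 difference of 2.37. A peak was found for 33, and 14 were strong. The median difference was 3.88 from RFP- MHCIIhi, 2.44 from RFP+ MHCIIhi and 0.92 from RFP- MHCIIlo. Pou2f3, the factor that specifies tuft cells, was at 262, 200, 218 and 175 CPM, against 83.5 CPM in RFP- MHCIIlo, 71.6 in RFP+ MHCIIhi and 15 CPM in RFP- MHCIIhi. Genes of the taste signalling chain followed the same order of populations. Gnat3, the taste G protein, was at 550, 394, 378 and 402 CPM against 179, 55 and 6.99 CPM, and the phospholipase Plcb2 was at 688, 520, 566 and 465 CPM against 207, 89 and 14.5 CPM. The ion channel Trpm5 was at 644, 520, 598 and 494 CPM against 298 CPM in RFP- MHCIIlo, a peak that was not strong (log2 difference 0.92 from that population). Dclk1, a kinase used to mark tuft cells, was at 1085, 663, 749 and 614 CPM against 467 CPM, and Il25, the cytokine tuft cells release, at 10, 11.2, 13 and 8.53 CPM against 5.81 CPM. Library 1 was the highest of the 4 for Pou2f3, Gnat3, Plcb2, Trpm5 and Dclk1, and without it 33 tuft genes peaked and 11 were strong. In bulk RNA, more cells of a type and more RNA per cell cannot be told apart, here and for every group below.

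Microfold cell genes were higher with a similar order. Of 13 tested, 10 were higher and 2 lower than the mean, and 9 peaked, 1 of them strongly. Gp2, the bacterial receptor on microfold cells, was at 1055, 1011, 981 and 957 CPM, against 613 CPM in RFP- MHCIIlo, 303 in RFP+ MHCIIhi and 79 CPM in RFP- MHCIIhi. Its 4 libraries differed by little and lay above the 12 others. The chemokine Ccl20 was at 294, 393, 350 and 512 CPM against 215 CPM in RFP- MHCIIlo, and Ccl6, the strong member, at 124, 166, 140 and 179 CPM against 65 CPM. Sox8, a factor of microfold maturation, peaked at 86.3 CPM against 58.7 CPM. Spib, a factor that tuft and microfold cells both use, was counted in both lists and peaked at 727 CPM against 507 CPM in RFP- MHCIIlo. The adhesion molecule Icam1, also in the list, went the other way and was lowest in RFP+ MHCIIlo, at 47.2, 55.5, 64.8 and 58.1 CPM against 93 CPM in RFP- MHCIIlo and 196 and 209 CPM in the MHCIIhi populations.

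**Figure D3:**
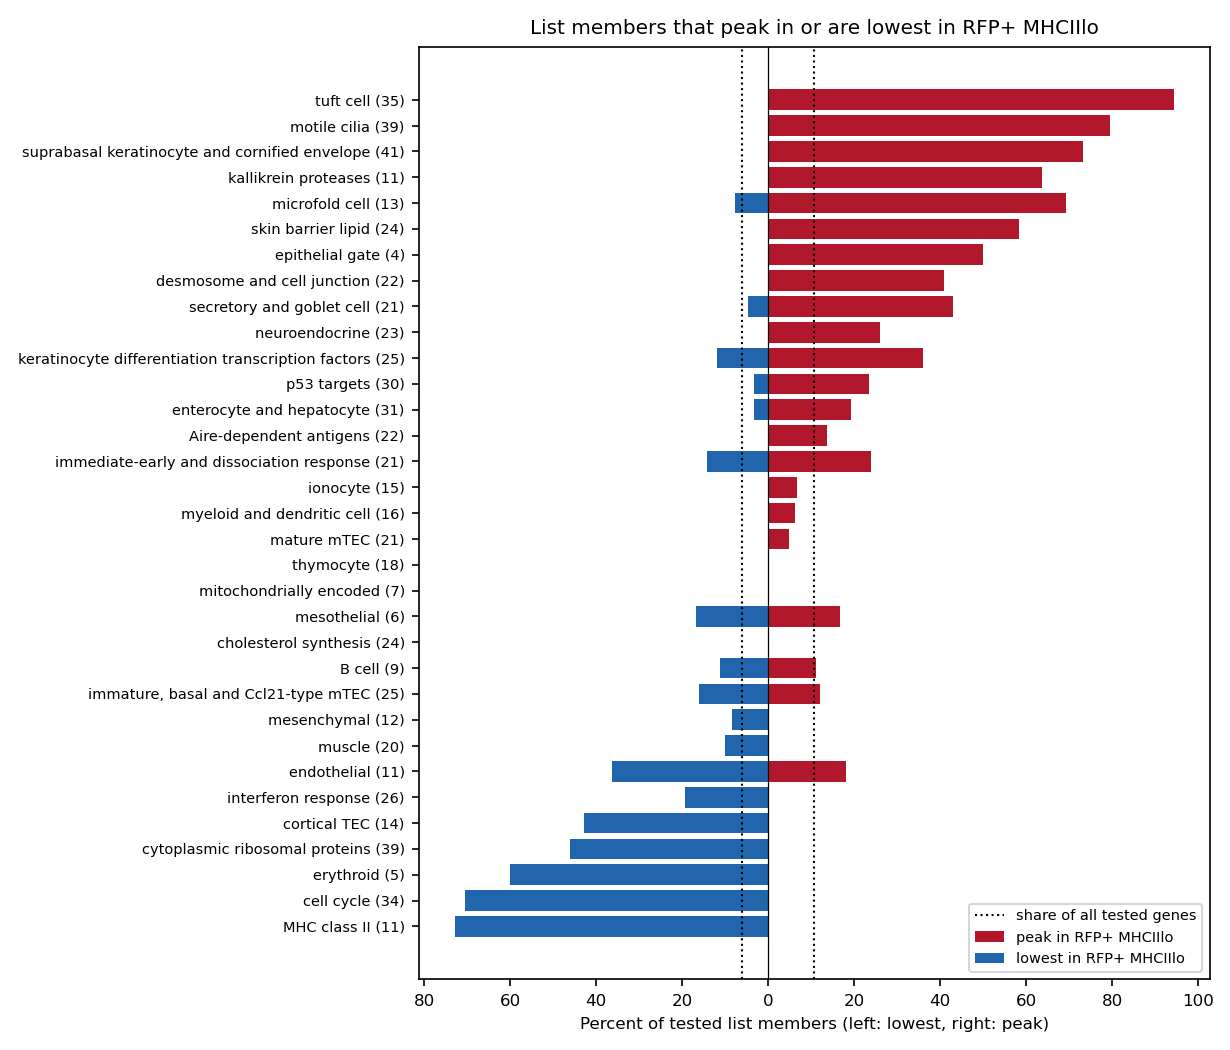
Share of tested list members (horizontal, percent; number tested in brackets) that peak in RFP+ MHCIIlo, in red to the right, or are lowest there, in blue to the left, with dotted lines at the 10.7% and 6.13% of all tested genes. Tuft cell, motile cilium and suprabasal keratinocyte genes have the longest red bars of the lists with over 30 members, and cell cycle and ribosomal genes the longest blue bars.

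Gut and liver genes were high in RFP+ MHCIIlo but mostly shared with RFP+ MHCIIhi. Of 31 tested enterocyte and hepatocyte genes, 21 were higher and 7 lower than the mean of the others, 6 peaked and none strongly. Against RFP+ MHCIIhi only 6 were higher and 15 were lower (28.1% of all tested genes were lower), while 26 were higher against RFP- MHCIIlo. Ttr, a carrier of thyroid hormone made in liver, was at 90.2, 105, 61.5 and 91.1 CPM, below RFP+ MHCIIhi (123 CPM, log2 difference -0.5, SE 0.13, adjusted p = 0.0019) and above RFP- MHCIIlo (3.9 CPM). Saa3, an acute-phase protein, was likewise at 366 CPM between 665 CPM in RFP+ MHCIIhi and 21.5 in RFP- MHCIIlo. Reg3g, an antimicrobial lectin of the gut, was at 2412, 3003, 2806 and 3684 CPM against 2430 CPM in RFP+ MHCIIhi, a peak with overlapping libraries that was lost without library 4. Muc13, a transmembrane mucin of the gut, did peak, at 229, 261, 246 and 289 CPM against 185 CPM in RFP+ MHCIIhi. The fibrinogen chain Fgg was a strong lowest gene, at 0.108, 0.122, 0.415 and 0.662 CPM against 0.975 CPM in RFP- MHCIIlo and 33 and 24.2 CPM in RFP- and RFP+ MHCIIhi. Both MHCIIlo populations held few reads of Fgg, and their libraries overlapped (log2 difference -1.42, SE 0.44, adjusted p = 0.0095).

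Of 21 secretory and goblet cell genes, 18 were higher and 2 lower than the mean, and 9 peaked. Against RFP+ MHCIIhi, 10 were higher and 4 lower (27.5% and 28.1% of all tested genes), with a median log2 difference of 0.55. Agr2, a disulfide isomerase needed for mucin folding, and the goblet factors Spdef and Foxa2 were the 3 strong ones. Agr2 was at 41.4, 45, 39.4 and 42.2 CPM against 20.9 CPM in RFP+ MHCIIhi. Muc5b, a gel-forming airway mucin, was at 172, 111, 172 and 132 CPM against 86.7 CPM in RFP- MHCIIlo, and Tff3, a trefoil peptide, was at 66.5 CPM against 52.5 CPM in RFP+ MHCIIhi, a difference that did not pass (log2 0.35, SE 0.19, adjusted p = 0.12) but did without library 1. Fcgbp, a mucus protein, was lowest, at 1191 CPM against 1412 to 2774 CPM as means of the others, though not without library 1.

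Neuroendocrine genes did not move together. Of 23 tested, 14 were higher and 5 lower than the mean, 6 peaked and 2, Ghrl and Stxbp5l, peaked strongly. The number of strong members was 4 without library 1, 3 without library 4 and 5 without both. Ghrl, the precursor of ghrelin, was at 41.5, 76.7, 35.3 and 26.5 CPM against 14.5 CPM in RFP- MHCIIlo, and Stxbp5l, which regulates vesicle release, at 79.6, 82.9, 92.9 and 66 CPM against 24.4 CPM in RFP+ MHCIIhi. The peptide genes Calca and Gal were low: Calca was at 13.2, 8.27, 11.2 and 7.86 CPM against 163 and 96.7 CPM in RFP- and RFP+ MHCIIhi, and Gal at 2.79 CPM against 36.1 and 35.8 CPM. Both were still above RFP- MHCIIlo, at 4.64 and 0.383 CPM. Chga, a granule protein of endocrine cells, was at 62.8, 63.8, 75 and 62 CPM, below the 176 CPM of RFP- MHCIIlo and above the MHCIIhi populations (20.1 and 35.9 CPM). Among 15 ionocyte genes 5 were higher (3 without libraries 1 and 4) and 3 lower, with 1 peak, Atp6v1c2, a subunit of the proton pump (19.2, 21, 25.6 and 26.2 CPM against 6.09 CPM in RFP+ MHCIIhi). Over all tested genes 29.5% were higher, 27.6% lower and 10.7% peaked, and the ionocyte counts lay near these shares. Of 20 muscle genes, 4 were higher and 13 lower, with a median log2 difference of -0.68. Chrna1 was among the lower ones (log2 difference -0.53, SE 0.16, adjusted p = 0.0071), a call that did not hold without libraries 1 and 4. It was at 5.75 CPM against 14.4 and 11.1 CPM in RFP- and RFP+ MHCIIhi and 3.55 CPM in RFP- MHCIIlo. Myog, the factor of muscle differentiation, was among the higher ones at 12.3 CPM, but did not pass against RFP- MHCIIlo (10.6 CPM, log2 difference 0.23, SE 0.19, adjusted p = 0.33).

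Genes of growth arrest and of cell contact gave smaller and mixed differences. Of 30 listed p53 targets 13 were higher and 5 lower (3 without libraries 1 and 4), with a median log2 difference of 0.17, and 7 peaked. The shares over all tested genes were 29.5% higher, 27.6% lower and 10.7% with a peak. Plk2, a kinase induced by p53, peaked strongly at 393, 292, 313 and 278 CPM against 148 CPM in RFP- MHCIIlo and 58.5 in RFP+ MHCIIhi, a peak that was not strong without library 1. Cdkn1a, the cyclin-dependent kinase inhibitor p21, was at 501, 443, 393 and 408 CPM against 322 CPM in RFP+ MHCIIhi (log2 difference from the mean 1.17, SE 0.08, adjusted p = 1.4e-11). Mdm2, which degrades p53, did not differ beyond the test from the mean (182 CPM, log2 -0.02, SE 0.06, adjusted p = 0.8), and Fas, a death receptor, was lower (17.7 CPM against 57.9 and 53.5 CPM in the MHCIIhi populations). Of 22 desmosome and junction genes, 16 were higher and 2 lower, and the desmosomal cadherins Dsc1 and Dsg3 peaked strongly, Dsc1 at 38.8, 31.1, 33.4 and 24.6 CPM against 11.5 CPM in RFP+ MHCIIhi. Other desmosomal cadherins did not peak. Dsg1a did not differ beyond the test from the mean (log2 0.07, SE 0.07, adjusted p = 0.4), and Dsg2 was lower. Dsg1b and Dsc2 were higher than the mean, but neither call held without library 4. Among 24 cholesterol synthesis genes 4 were higher and 2 lower, none peaked, and the median was 0.0. The number of lower ones was 3 without library 1, 5 without library 4 and 4 without both. Of 7 tested mitochondrially encoded genes 1 was higher and 1 lower, against 0 and 3 without library 4, and of the 4 epithelial genes of the gate all were higher and Epcam and Krt18 peaked.

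The 6 strong peak genes with the highest CPM were Spink5 and Krtdap of the keratinocyte list and Anxa4, Ivns1abp, Mctp1 and Clca3b. Anxa4, an annexin of secretory epithelia, was at 952, 792, 786 and 908 CPM against 389 CPM in RFP+ MHCIIhi and 385 in RFP- MHCIIlo. Mctp1, a calcium-binding membrane protein, was at 671, 502, 545 and 542 CPM against 241 CPM in RFP- MHCIIlo and 97.9 in RFP+ MHCIIhi. Ivns1abp, a kelch protein, was at 699, 578, 563 and 681 CPM and Clca3b at 619, 557, 659 and 424 CPM, and for all 4 genes RFP- MHCIIhi was the lowest population. Ivns1abp was not strong without library 1 or without library 4. Atg9b, an autophagy gene chosen by its smallest difference, was at 58.1, 73, 59.3 and 50.6 CPM against 16.6 CPM in RFP+ MHCIIhi.

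The genes lowest in RFP+ MHCIIlo included extracellular matrix, adhesion and growth factor binding genes. Of 40 that were strong, had at least 20 CPM as a mean in every other population and had no overlap between libraries, 16 are named here by the size of their smallest difference. Igfbp3, which binds insulin-like growth factors, was at 5.39, 4.5, 5.81 and 5.63 CPM in RFP+ MHCIIlo. It was at 23.9, 24.3, 24.1 and 24.6 CPM in RFP- MHCIIhi, at 20.2, 17.9, 20.2 and 24.1 CPM in RFP+ MHCIIhi and at 46.2, 57.3, 71.9 and 64.1 CPM in RFP- MHCIIlo. The 4 libraries were nearly level, and the naming rule required them to lie below all others (log2 difference from the mean -2.53, SE 0.13, adjusted p = 4.8e-14). Over all tested genes, 775 (3.95%) had every RFP+ MHCIIlo library below all others. Fn1, the matrix protein fibronectin, was at 30.4, 45.1, 48.3 and 49.6 CPM, against 237 CPM in RFP- MHCIIhi, 242 in RFP+ MHCIIhi and 163 in RFP- MHCIIlo. Vcam1, an adhesion molecule for lymphocytes, was at 50.7, 71.3, 67.3 and 63.6 CPM, against 342, 305 and 214 CPM in the same order. Hhip, an antagonist of hedgehog ligands, was at 7.33, 8.4, 9.02 and 6.13 CPM, against 55.4, 27.3 and 33.9 CPM. Adam19, a membrane protease that sheds growth factors, was at 8.84, 11.8, 13.2 and 12.8 CPM, against 117, 44.1 and 39.8 CPM. Igfbp6, related to Igfbp3, had the largest smallest-of-3 difference, but its libraries were uneven, at 0.324, 3.04, 6.22 and 3.23 CPM. The collagen gene Col14a1, the transcription factor gene Msc, the glutamate receptor subunit gene Gria3, the muscle actinin gene Actn3, the oxidase gene Fmo1, the protease inhibitor gene Serpina3g and Map3k7cl completed the named genes beside Ciita, Mki67 and Aspm, which are described with their lists.

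**Figure D4:**
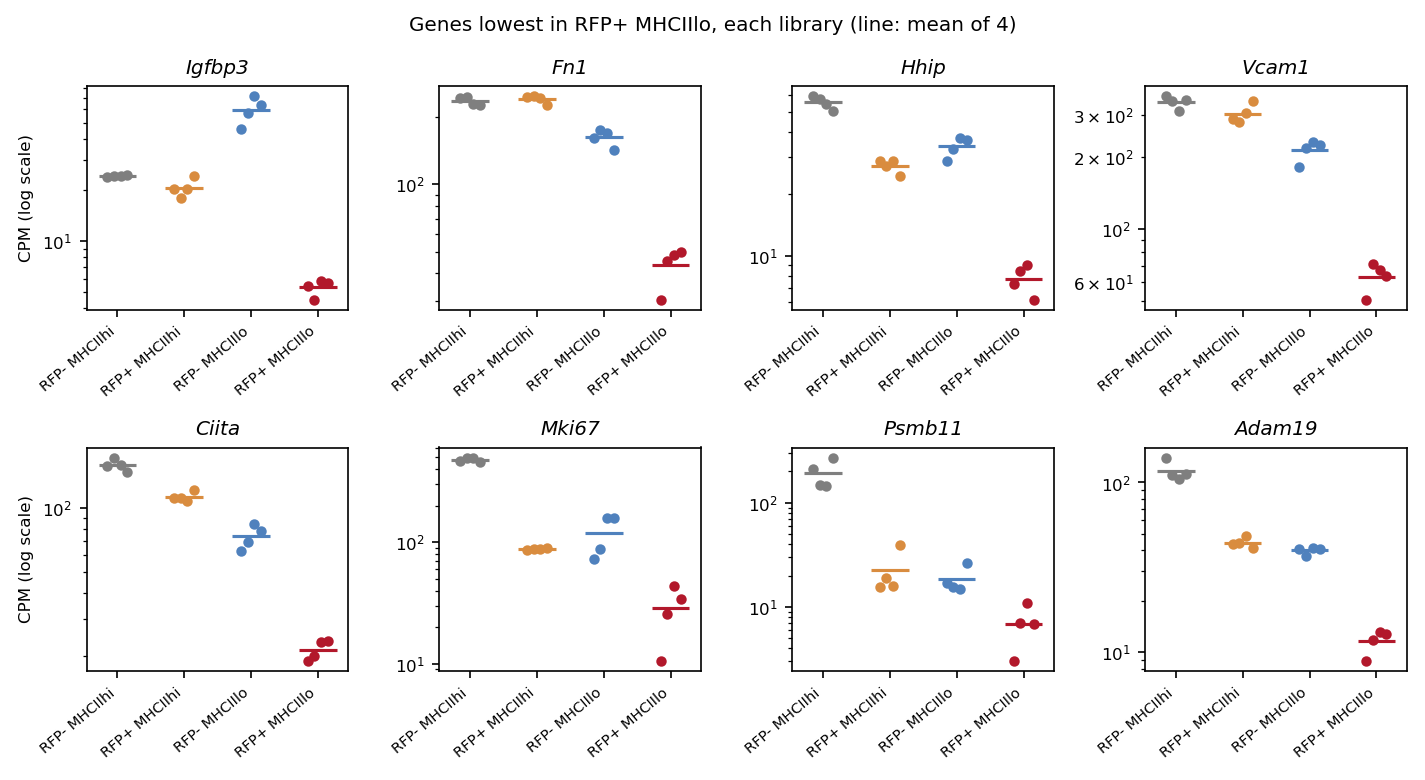
CPM (vertical log axes) of 8 genes lowest in RFP+ MHCIIlo, a point per library and a line at each mean of 4. The RFP+ MHCIIlo points lie below all others in each panel, which a naming rule required for all of these genes but Psmb11. Library 1 (leftmost of the 4) is the lowest of them for Fn1, Vcam1, Ciita, Mki67, Psmb11 and Adam19.

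MHC class II genes were lower in RFP+ MHCIIlo than in either MHCIIhi population, and most were lower than in RFP- MHCIIlo too. Surface MHC class II was the sorting gate, so the difference from MHCIIhi cells was set by the design, and only the comparison with RFP- MHCIIlo goes beyond it. All 11 list members were lower than the mean of the others, 8 were lower than each population, and 3, Ciita, H2-DMa and H2-DMb2, were strong. Ciita, the master regulator of MHC class II transcription (chr16:10480059-10528418), was at 19, 20, 23.5 and 23.7 CPM. It was at 62.7, 69.4, 84.5 and 77.8 CPM in RFP- MHCIIlo, a log2 difference of -1.77, and at means of 113 and 160 CPM in RFP+ and RFP- MHCIIhi. The chain genes differed less from RFP- MHCIIlo: H2-Aa was at 699, 953, 1070 and 1116 CPM against 1317 CPM (log2 difference -0.46), and Cd74, the invariant chain, at 1385, 2095, 2430 and 2967 CPM against 2883 CPM (log2 difference -0.38, SE 0.15, adjusted p = 0.043), with libraries that overlap between the populations. H2-DMa, which loads peptide, was at 34.5, 38.7, 34.8 and 45.9 CPM against 87.8 CPM. Without library 1, 7 members were lower than each population, without Cd74, and 2 were strong, without H2-DMb2.

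Cell cycle genes were lower without exception against the mean. All 34 passed as lower, 24 were lower than each population, and 14 were strong, with a median log2 difference of -1.78 from the mean and of -1.13 from RFP- MHCIIlo. Mki67, a marker of cycling cells, was at 10.5, 25.8, 43.5 and 34.4 CPM in RFP+ MHCIIlo. It was at 458 to 497 CPM in RFP- MHCIIhi, at 86.6 to 89.2 CPM in RFP+ MHCIIhi and at 72.3, 88.8, 158 and 159 CPM in RFP- MHCIIlo. Every RFP+ MHCIIlo library lay below the 12 others, which the naming rule for lowest genes also required. Its 4 values nevertheless spread more than those of either MHCIIhi population. Top2a, a topoisomerase of dividing cells, was at 12.6, 22.6, 33.7 and 19.6 CPM against 51.6 CPM in RFP- MHCIIlo, Aspm, a spindle pole protein, at 5.82, 7.3, 11.8 and 10.2 CPM against 26.6 CPM, and Cdk1, the mitotic kinase, at 2.48, 5.48, 3.84 and 4.55 CPM against 8.87 CPM. The number of strong members depended on libraries 1 and 4: it was 9 without library 1, 19 without library 4 and 10 without both, while 22, 25 and 19 members were lower than each population.

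Cortical thymic epithelial genes followed the same direction, with 13 of 14 lower than the mean and 6 lower than each population. Psmb11, the thymoproteasome subunit of cortical cells, was at 3.02, 7.06, 10.8 and 6.79 CPM against 18.4 CPM in RFP- MHCIIlo, 22.5 in RFP+ MHCIIhi and 194 CPM in RFP- MHCIIhi. Foxn1, the regulator of thymic epithelial identity, was at 61.5, 64.6, 77.5 and 60 CPM against 104, 198 and 273 CPM in the same order, and Kitl, a growth factor for thymocyte precursors, at 1.94, 3.41, 1.66 and 4.55 CPM against 16.5, 16.2 and 15.3 CPM. Cytoplasmic ribosomal protein genes were lower by less: 35 of 39 passed against the mean, 18 were lower than each population and none was strong, with a median of -0.58. Rplp0 was at 84.1, 86.5, 90.8 and 85.8 CPM against 127 CPM in RFP- MHCIIlo, 142 in RFP+ MHCIIhi and 232 CPM in RFP- MHCIIhi. Genes of this family share reads with processed pseudogenes, and single values are uncertain. Of 26 interferon response genes 14 were lower and 4 higher than the mean, and 23 were lower than in RFP- MHCIIlo. Against the other populations the list divided: 14 were higher and 9 lower than in RFP- MHCIIhi, and 10 were higher and 9 lower than in RFP+ MHCIIhi. Only 5 were lowest in RFP+ MHCIIlo, and the next genes are of these 5. Cxcl10, a chemokine for T cells, was lowest, with overlap, at 55.1, 87, 88.7 and 143 CPM against 161 CPM in RFP- MHCIIlo, and Ifit2, an interferon-induced RNA binder, was strongly so at 3.56, 5.23, 4.35 and 4.3 CPM against 17.8 CPM.

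Genes of mature mTEC were low without being lowest. Of 21 tested, 15 were lower and 5 higher than the mean, but 14 were higher than in RFP- MHCIIlo and 17 lower than in RFP+ MHCIIhi. The shares over all tested genes were 27.6%, 29.5%, 28.9% and 28.1% in the same order. Aire itself was at 13.9, 67.9, 54.3 and 66.8 CPM in RFP+ MHCIIlo, far below its means in RFP- MHCIIhi (977 CPM) and RFP+ MHCIIhi (586 CPM). It did not differ beyond the test from RFP- MHCIIlo, at 16.2, 23.8, 42.5 and 68.9 CPM (log2 difference 0.42, SE 0.34, adjusted p = 0.31). Fezf2, another regulator of tissue-restricted genes, was at 172, 218, 230 and 214 CPM against 554 and 553 CPM in the MHCIIhi populations and 158 CPM in RFP- MHCIIlo, and Cd80, a costimulatory ligand, at 19.9 CPM against 60.7, 93.2 and 9.75 CPM. Cited2, a transcriptional coregulator placed in this list, peaked, at 206, 161, 170 and 209 CPM against 90.4 CPM in RFP- MHCIIlo. With a difference of 1.05 from that population it was the list's 1 strong peak gene, and none was strong without library 1, without library 4 or without both. Of 22 tested Aire-dependent antigens, 11 were lower and 5 higher than the mean, 18 were lower than in RFP+ MHCIIhi and 18 higher than in RFP- MHCIIlo, and the median of -0.6 became -0.34 without library 1.

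Basal and Ccl21-type mTEC genes separated RFP+ MHCIIlo from RFP- MHCIIlo more than from the rest. Of 25 tested, 19 were lower than in RFP- MHCIIlo (22.7% of all tested genes) and 3 higher. Krt14 and Trp63, keratin and master factor of basal epithelia, were at 97.3 and 116 CPM against 437 and 380 CPM in RFP- MHCIIlo, and neither differed beyond the test from either MHCIIhi population. Krt5, the partner of Krt14, was at 469 CPM, between 1340 CPM in RFP- MHCIIlo and 269 in RFP+ MHCIIhi. Its libraries were at 477, 468, 476 and 457 CPM, and the small difference from the mean (log2 0.2, SE 0.08, adjusted p = 0.044) changed side of the threshold with the processing. Dapl1, listed with these genes, peaked at 172, 200, 187 and 232 CPM against 107 CPM in RFP+ MHCIIhi and 29.1 in RFP- MHCIIlo.

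Early response genes, which tissue digestion can induce, were higher as a sum in both MHCIIlo populations than in the MHCIIhi populations. Of 21 tested, 14 were higher (29.5% of all tested genes) and 3 lower (27.6%) than the mean. A peak was found for 5 (10.7%), while 3 were lowest (6.13%). Against RFP- MHCIIlo, 6 were higher and 7 lower. Fos was at 276 CPM against 303 CPM in RFP- MHCIIlo, a difference that did not pass (log2 -0.13, SE 0.1, adjusted p = 0.26), and at 132 and 78 CPM in RFP+ and RFP- MHCIIhi. Egr3 was the strong peak gene, at 53, 48.2, 43.3 and 35.8 CPM against 20.6 CPM in RFP- MHCIIlo. The part of digestion in these differences was not tested.

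Markers of other cell types that could pass the gate differed between the populations in a way that depended on the cell type. The summed level of 18 thymocyte genes was 111 to 248 CPM there, against 82.2 to 124 CPM in RFP- MHCIIlo, 218 to 328 CPM in RFP+ MHCIIhi and 620 to 1310 CPM in RFP- MHCIIhi. None was higher and 9 were lower than the mean, and 10 were higher than in RFP- MHCIIlo. The count of 9 lower thymocyte genes fell to 6 without library 1 and to 3 without libraries 1 and 4. For 16 myeloid and dendritic genes the sums were 207 to 304, 121 to 158, 784 to 813 and 514 to 599 CPM in the same order of populations, with 2 higher and 8 lower, and for 12 mesenchymal genes 152 to 281, 1050 to 1790, 215 to 242 and 332 to 382 CPM, with 6 lower. The sums of 11 endothelial genes were 71.1 to 82.5, 75.4 to 111, 55.3 to 62.2 and 60 to 65.3 CPM, with 7 lower and 2 higher. Of these, 4 were lowest, and 2 without libraries 1 and 4. The endothelial cadherin Cdh5 was at 1.08, 0.608, 1.14 and 0.0828 CPM, and Cldn5 had no read in 3 of the 4 libraries. Tek, an angiopoietin receptor of that list, was nevertheless at 48.9, 33.9, 32.1 and 30.4 CPM and peaked, as did Vwf. For mesothelial genes the sums of 6 were 637 to 682, 549 to 744, 254 to 288 and 110 to 126 CPM, with 2 higher and 3 lower. The sums were high in both MHCIIlo populations, but the median member was not high in RFP+ MHCIIlo. Its log2 difference was -0.83 from the mean and -3.09 from RFP- MHCIIlo, and 4 of the 6 were lower than in RFP- MHCIIlo. Upk3b was at 0.324, 0.243, 5.39 and 1.82 CPM while Msln was at 313, 387, 366 and 381 CPM, against 351 CPM in RFP- MHCIIlo. Of 5 tested erythroid genes 4 were lower, with Hbb-bs at 0.755, 0.365, 0 and 0.993 CPM. Of 9 B cell genes 5 were lower (3 without library 1 and 2 without libraries 1 and 4) and 2 higher, and their sums were 57.7 to 71.2, 36.1 to 45.6, 65.3 to 71.2 and 52.2 to 57.5 CPM. Cd79a was at 0.324, 0.852, 0.311 and 0.828 CPM, and Vpreb3, which is on that list, was a strong peak gene (23.2, 16.2, 14.7 and 23.7 CPM against 5.19 CPM in RFP+ MHCIIhi). The part of these cells in the lower genes, above all matrix genes such as Fn1 and Col14a1, was not tested.

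The 4 RFP+ MHCIIlo libraries spread more than those of any other population. The median over the tested genes of the SD of log2 CPM was 0.292 in RFP+ MHCIIlo, 0.224 in RFP- MHCIIlo, 0.163 in RFP+ MHCIIhi and 0.154 in RFP- MHCIIhi. Over the 5031 genes with at least 20 CPM in every population the order was kept at lower values: 0.15, 0.116, 0.094 and 0.089. For strong lowest genes the median SD was 0.601 in RFP+ MHCIIlo, and for strong peak genes, which have more reads there, it was 0.288, below the 0.328 of RFP- MHCIIlo. Correlations of log2 CPM between libraries were 0.9495 to 0.9674 in RFP+ MHCIIlo and at least 0.9738 elsewhere. At the smallest total, 23069, 25408, 23700 and 26599 genes were expected to be detected in RFP+ MHCIIlo libraries 1 to 4, against 23731 to 24738 in RFP- MHCIIlo and 25795 to 27213 in the MHCIIhi populations.

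Among peak genes with at least 20 CPM, the steadiest were Atp1b1, the sodium pump subunit (804, 783, 797 and 794 CPM), Hpf1, a cofactor of PARP enzymes (31.6, 32.2, 32.1 and 31.5 CPM), Tmem234, Rap1gap2 and Slc25a35. Atp1b1 lay above the 467 CPM of RFP+ MHCIIhi, and Hpf1, which differed from the mean by 0.29 on the log2 scale (SE 0.07, adjusted p = 0.0012), had its 4 libraries above all others but lost its peak without library 1 or without library 4. The least steady were the cilium genes Tmem212, Riiad1 and Drc1, together with Ly6c1 and Ghrl. Tmem212 was at 32.4, 30.7, 23.2 and 57.4 CPM, and Riiad1 at 15.7, 20.3, 11.3 and 34.1 CPM. Library 4 was the high one for Tmem212, Riiad1 and Ly6c1 (29.7, 27.6, 30.2 and 71.5 CPM), library 2 for Ghrl, and library 1 for Drc1 (39.5, 28.6, 16.4 and 25.3 CPM).

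Libraries 1 and 4 stood apart in different ways. Library 4 had the lowest correlations, at 0.9495, 0.9563 and 0.9516 with libraries 1, 2 and 3, against 0.9631 to 0.9674 among those 3. The difference of library 1 ran through several of the groups above. On the first principal component of the most variable genes, which separates MHCIIlo from MHCIIhi libraries, its score was 51, against 28.21, 30.58 and 30.86 for libraries 2 to 4 and 49.48 to 59.27 for RFP- MHCIIlo. It was the highest of the 4 for 40.2% of strong peak genes and the lowest for 43.2% of strong lowest genes, against 24.0% and 30.4% of all tested genes. The median member of a list lay away from the mean of the 4 libraries by 0.31 (log2) for tuft cell genes in library 1, by 0.16 for suprabasal keratinocyte genes, by -0.47 for MHC class II, -0.62 for Aire-dependent antigens, -0.71 for the cell cycle, -0.91 for myeloid and -0.97 for thymocyte genes. For cilium genes the median was near 0 in each library (0.07, 0.06, -0.06 and -0.03), while single members such as Tmem212, Riiad1 and Drc1 spread widely. Library 4 had the highest medians for mesenchymal (0.57) and erythroid (0.48) genes. Without library 1, 2049 genes peaked, 1879 of them among the 2107, and 1123 were lowest, 1000 of them among the 1202. Without libraries 1 and 4 the numbers were 1944 (1717 shared) and 1097 (859 shared), the keratinocyte list had 30 peak genes, the cilium list 30 and the tuft list 34.

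**Figure D5:**
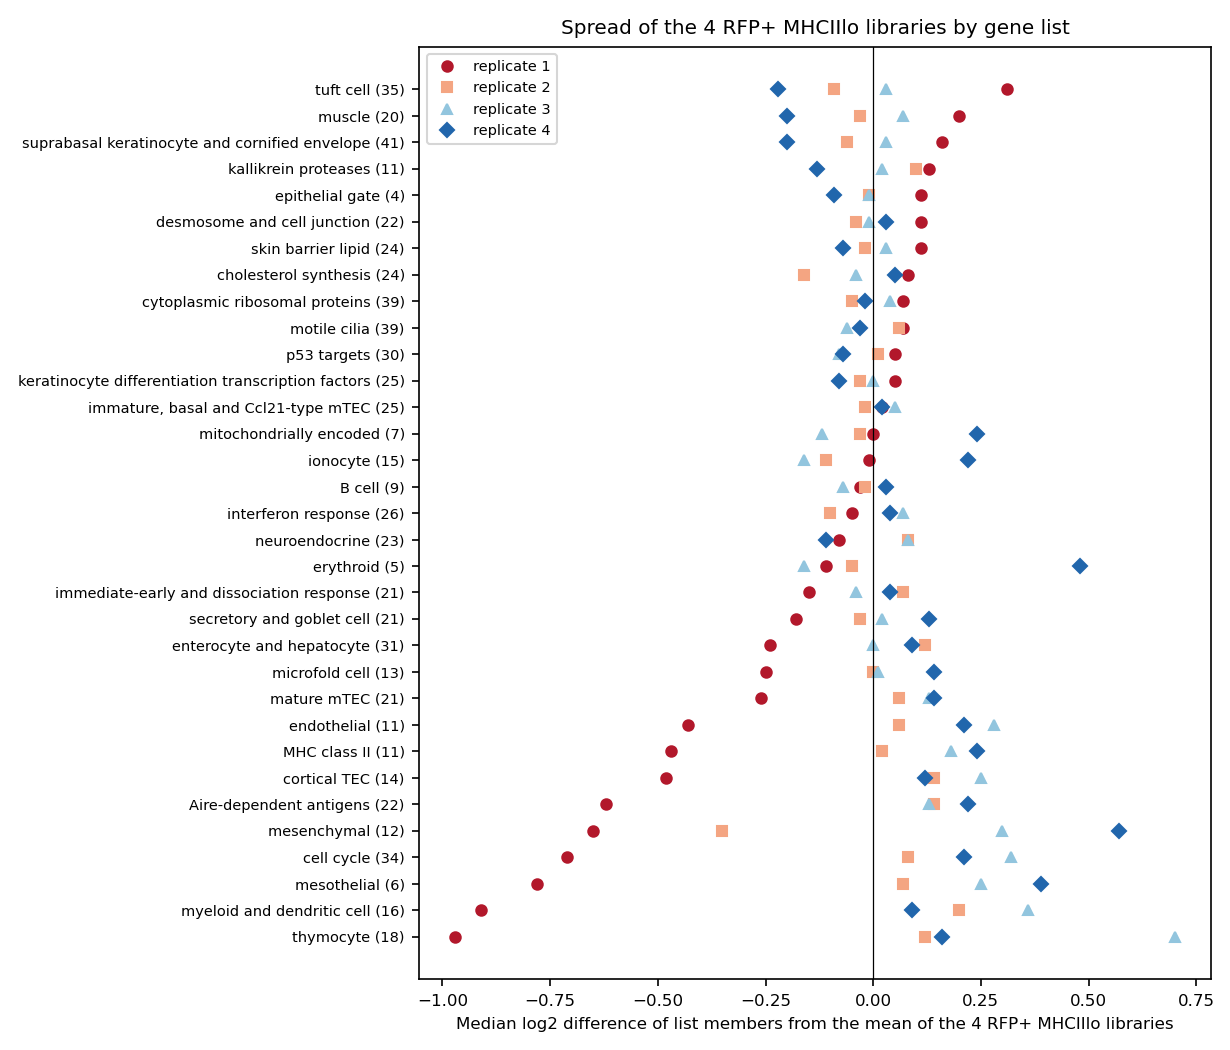
Median log2 difference (horizontal) of list members in each RFP+ MHCIIlo library from the mean of the 4, a symbol per library and a row per list with the number tested. Library 1 (red circles) lies at the left end for thymocyte, myeloid, mesothelial and cell cycle genes and at the right end for tuft cell genes, and the 4 medians nearly coincide for motile cilia.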

How the data were processed

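RNA was measured in 16 libraries of sorted thymic epithelial cells, 4 for each population, assigned by title. Per the labels' protocols, bead-purified poly(A) RNA was turned into amplified cDNA (NuGen Ovation V2) for Nextera XT library preparation. The deposited values are raw counts of reads per Ensembl gene (43432 genes) made by the authors. STAR, DESeq2 and GRCm38 are named in the submitters' processing notes, while their versions, the annotation and whether strand was used were not given in the sources used here. Amplification from few cells without molecular identifiers means that reads are not independent molecules. Symbols and coordinates came from the GRCm38 annotation in the reference (42548 genes matched, and the other 884 held 0.1% of reads).

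All 16 libraries entered one edgeR 4.0.16 quasi-likelihood fit (R 4.3.3), with TMM factors and filterByExpr (minimum count 10, minimum total 15), which left 19617 genes. RFP+ MHCIIlo was tested against the mean of the other 3 and against each, with Benjamini-Hochberg adjustment over all genes and a threshold of 0.05. Log2 CPM used a prior count of 2. The fitting code was tested on simulated data. No 2 libraries of a population agreed within sampling noise (chi-square per degree of freedom 2.99 to 32.66).

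Genes named in the text were the fixed examples of 33 gene lists, the 16 strong peak and the 16 strong lowest genes with at least 20 CPM, no overlap between libraries and the largest smallest-of-3 difference, the 6 strong peak genes with the highest CPM, and the 5 peak genes with the largest and the 5 with the smallest spread, passing over predicted genes. Some listed genes are counted with their lists but not reported here by name. Other list members are examples chosen with their values known. The members and lists were chosen with earlier results of these data known. Promoter sequences are from RefSeq (GRCm38.p6) and were found for 14003 of 19611 uniquely named genes.

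Alternatives were other size factors, totals without mitochondrial ribosomal RNA, DESeq2 1.42.0, limma-voom (limma 3.58.1), other count filters and thresholds, fits on 2 populations, a replicate block, and fits without libraries. List counts without RFP+ MHCIIlo libraries 1 and 4 were added after seeing the data.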

Additional observations from a re-analysis of the deposited data

Results flagged for a closer look

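In each population of 4 libraries, a named gene's highest or lowest library was singled out when its gap to the nearest other library, divided by the range, exceeded Dixon's 95% critical value. This happened in 21 of 612 groups, and chance alone flags about 1 in 20. In RFP+ MHCIIlo 6 groups were singled out, 4 of them through library 1. Library 1 was high for Rsph1 (60.6 CPM) and Gnat3 (550 CPM) and low for Aire (13.9 CPM) and H2-DMb2 (13.1 CPM). Library 3 was high for Chga (75 CPM), and library 4 was high for Ly6c1 (71.5 CPM).

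The other 15 lay in the 3 other populations. In RFP- MHCIIlo, library 1 was high for Lor (6.47 CPM), Muc5b (123 CPM) and Klf5 (79.6 CPM) and low for Ccl20 (169 CPM). There, library 2 was low for Adam19 (37.0 CPM) and for C1qa, a complement gene of macrophages (0.423 CPM), and library 4 was high for Kitl (21.8 CPM). In RFP+ MHCIIhi, library 1 was apart for Krt5 (311 CPM), Top2a (50.2 CPM), Dmkn (174 CPM) and Serpinb12 (147 CPM), library 2 for Riiad1 (9.49 CPM) and library 3 for the desmosomal Dsg1a (97.6 CPM). In RFP- MHCIIhi, library 1 was apart for Spib (454 CPM) and library 3 for Insm1, a neuroendocrine factor (94.9 CPM).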

How the results depend on the processing

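Over the 16 fits that each left out 1 library, higher genes numbered 5242 to 5850, lower genes 5018 to 5690, peak genes 1827 to 2136, lowest genes 1105 to 1314, strong peak genes 600 to 700 and strong lowest genes 339 to 485. At an adjusted p under 0.01, 765 genes were lowest in place of 1202. Strong genes at a limit of 0.5 numbered 1481 peak and 771 lowest, and at a limit of 2 they numbered 37 and 82. The median SD of log2 CPM in RFP+ MHCIIlo was 0.15 in place of 0.292 for genes with at least 20 CPM in every population. All other counts over the tested genes stayed within 1.5 times the reported one. Counts within gene lists moved further without libraries 1 and 4 of RFP+ MHCIIlo, and several of these counts are given beside their list. Lower genes numbered 1 in place of 2 without library 1 for microfold, secretory and motile cilium genes, and lowest early response genes 1 in place of 3. Lowest muscle genes numbered 4 in place of 2 without library 1. The skin barrier lipid list gained 1 lower gene without library 4.

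No label paired the libraries by replicate number. Correlations of deviations from the population mean ran from -0.019 to 0.129 between same-numbered libraries of different populations, most of them above 0. Between differently numbered libraries they ran from -0.121 to 0.079, most of them below 0. Whether same-numbered libraries shared a pool or a batch was not tested, and the main fit did not pair them. With the replicate number as a block, 5786 genes were higher, 5524 lower, 2123 peaked, 1271 were lowest, and 638 and 384 were strong.

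Of 153 named genes, 137 kept their direction and side of the threshold against the mean in all 24 settings. Krt5 lost its call in 17 settings and Grhl3 in 9. Among these 153, sign changes were found only for genes that were never called: Mdm2 (-0.11 to 0.01 without single libraries, and 0.01 without RFP+ MHCIIlo libraries 1 and 4), Dsg1a (-0.03 without libraries 1 and 4) and mt-Nd1. For mt-Nd1 the value was -0.02 with DESeq2, RLE factors or no filter, -0.01 without mitochondrial ribosomal RNA, -0.03 without libraries 1 and 4, and -0.03 to 0.03 without single libraries. The cause was not tested. The median SD of strong lowest genes in RFP+ MHCIIlo was 0.601, and the part of low input in it was not tested.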
